A study of Mus musculus with 48 samples.

Results

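The transcripts described here are those of antibody isotypes and of the cells that secrete antibody, measured in whole tibiae of mice. They are 10 genes chosen by name, the heavy chain constant genes Ighm, Ighd, Ighg1, Ighg2b, Ighg2c and Igha and the plasma cell genes Jchain, Mzb1, Sdc1 and Tnfrsf17, of 29801 genes in the deposited table. The samples were male C57Bl6J mice, and all 4 groups shared this strain and sex. Aged mice were between 15 and 18 months old and young mice 10 weeks old when the diet began, and the diet lasted 8 weeks. Caloric restriction (CR) mice ate a modified NIH-31/NIA diet fortified with micronutrients, reduced by 10% in the first week, 20% in the second and 40% from the third, and mice fed ad libitum (AL) ate the NIH-31 diet freely. The 4 groups were aged CR (mice 5, 6 and 7), aged AL (mice 13, 14 and 15), young CR (mice 1, 2 and 3) and young AL (mice 9, 10 and 11), and the values of a group are given below in that order of mice. The diets thus differed in composition as well as in amount, which cannot be told apart. In the study, mice were housed singly and a tibia was osteotomized during the diet, and the sources used here do not say whether the sequenced tibia was the operated bone. The labels name 48 libraries, 4 technical repeats of each of the 12 mice, and the table has 1 column per mouse.

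Antibodies are made of heavy and light chains, and the constant gene of the heavy chain sets the isotype. A B cell first expresses Ighm (IgM) and Ighd (IgD), and class switching later joins the same variable region to an IgG, IgE or IgA constant gene further along the locus. B cells that differentiate into plasma cells devote most of their protein synthesis to antibody, and the bone marrow is a main home of long-lived plasma cells. IgM and IgA polymers are held together by the joining chain, the product of Jchain. Mzb1 encodes a chaperone of the endoplasmic reticulum that assists antibody assembly and secretion, Sdc1 encodes syndecan-1 (CD138), the usual surface marker of plasma cells, and Tnfrsf17 encodes BCMA, a receptor through which plasma cells receive survival signals.

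All 6 isotype genes lie in the heavy chain locus on the minus strand of chromosome 12, within 167901 bases that also hold Ighg3 and Ighe. Positions are from GENCODE M21 on GRCm38, the build also called mm10, which the authors used for alignment, and each identifier was the same in the table and the annotation. Along the direction of transcription the order is Ighm (chr12:113418558-113422730), Ighd (chr12:113406604-113416324), Ighg3, Ighg1 (chr12:113325240-113330523), Ighg2b (chr12:113302965-113307933), Ighg2c (chr12:113285325-113288932), Ighe and Igha (chr12:113254830-113260236). The plasma cell genes lie outside the locus.

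The isotypes are read out through sequences of unequal likeness, which bears on how far their levels can be separated. In the shortest annotated transcript of each gene, the coding sequences of Ighg2b and Ighg2c were identical at 85.9% of 1004 aligned bases and shared an unbroken run of 78 bases. Ighg1 was identical to Ighg2b at 76.9% of aligned bases with a longest shared run of 37 bases, whereas Ighm and Igha matched Ighg2b at 63.4% and 57.6%, with longest runs of 13 and 11 bases. The first 90 coding bases of 5 isotypes are shown to make this visible, from GENCODE M21 transcripts on chromosome 12, and capitals mark each base that is not the same as in Ighg2b in the pairwise alignment.
Ighg2b: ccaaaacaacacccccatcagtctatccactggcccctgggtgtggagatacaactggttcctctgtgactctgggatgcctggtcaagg
Ighg2c: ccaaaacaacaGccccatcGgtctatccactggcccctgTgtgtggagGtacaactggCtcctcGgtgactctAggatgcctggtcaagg
Ighg1: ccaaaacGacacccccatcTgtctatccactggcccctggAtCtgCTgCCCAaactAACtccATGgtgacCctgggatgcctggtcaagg
Ighm: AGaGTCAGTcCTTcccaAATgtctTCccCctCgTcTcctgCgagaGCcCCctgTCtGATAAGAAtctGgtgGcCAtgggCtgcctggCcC
Igha: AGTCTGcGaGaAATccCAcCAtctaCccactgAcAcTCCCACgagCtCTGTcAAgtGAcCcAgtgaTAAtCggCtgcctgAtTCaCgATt
Ighg2c differed from Ighg2b at 7 of these bases, Ighg1 at 17, Ighm at 42 and Igha at 46. The longest stretch common to Ighg2b and Ighg2c, coding bases 565 to 642 of Ighg2b, was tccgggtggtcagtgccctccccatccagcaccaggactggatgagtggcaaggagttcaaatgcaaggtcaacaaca. A read lying within such a stretch fits both genes, and the sources used here do not say how the authors assigned such reads. The levels of the IgG genes, above all Ighg2b and Ighg2c, are therefore uncertain relative to each other. RefSeq promoters (250 bases before to 50 bases after the start, GRCm38.p6) were searched for Jchain, Sdc1 and Tnfrsf17, and Mzb1 was left out of the search. With 3 windows and motifs that are rare in promoters, a lack of matches says little about these genes. None of these 3 windows held the octamer ATGCAAAT, which is in 1.74% of the 32851 promoters of the table, or the unfolded protein response element TGACGTGN, in 2.01% of them, on either strand.

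Values were FPKM, fragment counts scaled for transcript length and library size, which the authors had quantile normalized, so a gene's value in a mouse is set by its rank among all genes of that mouse. At the top of the range ranks are few. Ighm was ranked 8th in aged CR mouse 5 at 5121 FPKM, the same value that the kappa light chain gene Igkc had at the same rank in mouse 7. Sums per mouse lay between 636207 and 636212 FPKM and the number of genes at 0 between 6856 and 8057. The depth of sequencing is unknown. Marker genes of bone and marrow were present, with the 6 neutrophil markers summing to 27683 to 45165 FPKM, the 5 erythroid markers to 105040 to 108572 FPKM and the 6 osteoblast and bone markers to 444.4 to 1785 FPKM. Of all mice, aged AL mouse 14 and aged CR mouse 5 stood farthest from the other mice of their groups, with root mean square differences of 0.44 and 0.38 on the log2 scale, against 0.24 to 0.36 for the other 10.

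Tests were made on log2(FPKM + 1) with limma, in 1 fit of the 4 group means over the 13590 genes whose mean reached 1 FPKM. A gene was called where its p, adjusted by the Benjamini-Hochberg method over these genes, was under 0.05. All 10 members passed that filter on expression. A difference is given on the log2(FPKM + 1) scale with its standard error (SE), and it understates the change of a low gene such as Tnfrsf17. In bulk tissue, fewer cells of a type and less RNA per cell cannot be told apart.

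The single difference called among the 10 genes was with age and in IgM. Ighm was measured at 5121, 690.1 and 2230 FPKM in aged CR mice and at 1639, 1776 and 4491 FPKM in aged AL mice, against 251.4, 228.6 and 271 FPKM in young CR mice and 386.9, 330.6 and 1389 FPKM in young AL mice. Within each diet every aged mouse was above every young mouse, but across diets the ages overlapped, since aged CR mouse 6 lay below young AL mouse 11. The 3 young CR mice were within 1.19-fold of each other, while aged CR mice spanned 7.42-fold. Ighm was higher in aged than in young mice over both diets by 2.53 (SE 0.50, 95% interval 1.44 to 3.62, limma adjusted p = 0.0482), and the medians were 2003 FPKM in aged mice and 300.8 FPKM in young mice, 6.66-fold apart. It was the 1 member of 10 called with age, where 61 of 13590 genes (0.449%) were called higher. The call lay close to the threshold. It was lost without aged CR mouse 5 (2.19, limma adjusted p = 0.0654), without aged AL mouse 15 (2.29, limma adjusted p = 0.0973) and without each of 7 other mice, at p up to 0.136, and was kept without young AL mouse 11, aged CR mouse 6 or aged AL mouse 14. Within a diet, Ighm differed by 2.99 (SE 0.70, limma adjusted p = 0.105) between aged and young CR mice, where 0.361% of genes were called in either direction, and by 2.07 (SE 0.70, limma adjusted p = 0.504) between aged and young AL mice, where 0.0662% were called. No member was called within either diet, against 2 of 10 in each at an unadjusted p under 0.05, where 11.4% of all genes tested stood in CR mice and 8.65% in AL mice, and the unequal-variance test on FPKM called none. Of 13590 genes, 1.18% were higher in aged mice without overlap on each diet, as Ighm was.

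**Figure D1:**
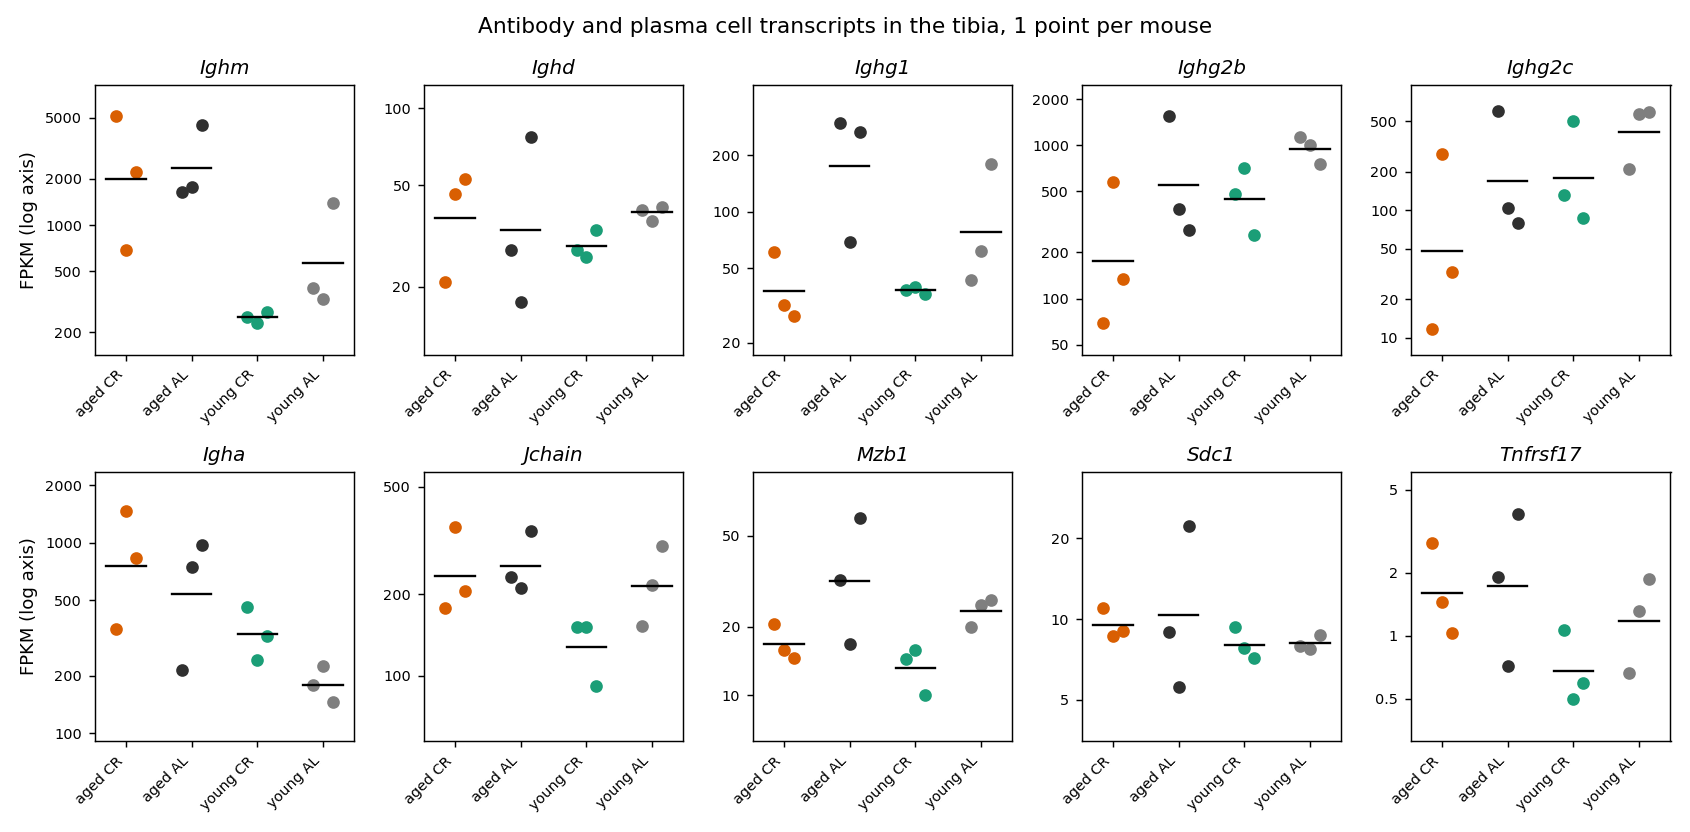
FPKM of the 10 genes on log axes, 1 point per mouse (n = 3 per group), in the order aged CR, aged AL, young CR, young AL, with bars at the geometric mean of each group. Ighm lay between 690.1 and 5121 FPKM in aged mice and between 228.6 and 1389 FPKM in young mice, and every CR mouse was below every AL mouse of its age for Ighg1.

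IgA, the isotype of mucosal secretions, followed with a difference that was not called. Igha had 351.2, 1473 and 827.3 FPKM in aged CR mice and 214, 747.8 and 970.7 FPKM in aged AL mice, against 461.3, 243.1 and 325.6 FPKM in young CR mice and 178.6, 225.7 and 145.1 FPKM in young AL mice. Mice 5 and 13, 1 on each diet, kept the aged groups within the range of the young, and the other 4 aged mice were above all 6 young mice. The difference with age over both diets was 1.38 (SE 0.41, limma adjusted p = 0.146, unadjusted p = 0.00615).

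The joining chain gene, which serves both IgM and IgA, had the narrowest range of the 10 genes across the 12 mice, 3.87-fold. Sdc1 was close to that at 3.97-fold, with its top set by mouse 15 at 22.2 FPKM. Jchain lies at chr5:88519809-88527891 on the minus strand. Jchain was at 177.6, 355 and 205.6 FPKM in aged CR mice and at 231.1, 211.2 and 342.5 FPKM in aged AL mice, against 151.4, 151 and 91.7 FPKM in young CR mice and 153.4, 216.2 and 301.6 FPKM in young AL mice. Aged CR mice all lay above young CR mice, a pattern that 7.90% of genes and 2 of 10 members (Jchain and Ighm) showed, whereas aged and young AL mice overlapped. Its difference with age was 0.56 over both diets (SE 0.22, limma adjusted p = 0.248) and 0.87 within CR mice (SE 0.32, limma adjusted p = 0.321). Among AL mice, the members with every aged mouse above every young mouse were 1 of 10, Ighm, against 5.59% of genes.

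IgD marks naive mature B cells rather than plasma cells, and its values had another pattern than those of IgM. Ighd was at 20.9, 46.2 and 53.1 FPKM in aged CR mice and at 28.0, 17.4 and 77.0 FPKM in aged AL mice, against 27.9, 26.3 and 33.5 FPKM in young CR mice and 40.0, 36.3 and 41.2 FPKM in young AL mice. Aged mice held both the lowest and the highest value and overlapped with young mice on each diet. The difference with age was 0.07 (SE 0.32, 95% interval -0.64 to 0.77, limma adjusted p = 0.939), and it was negative without mouse 6, 7 or 15.

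Of the IgG members, Ighg2b and Ighg2c had negative age differences and Ighg1 a positive one, and all varied widely between mice. Ighg2b, the highest IgG gene, had 68.9, 575.9 and 134.7 FPKM in aged CR mice and 1549, 382.1 and 282 FPKM in aged AL mice, against 483.8, 714 and 259.5 FPKM in young CR mice and 1125, 1000 and 753.7 FPKM in young AL mice. In young mice every CR value was below every AL value, and in aged mice CR mouse 6 was above AL mice 14 and 15. Ighg2c, the C57BL/6 counterpart of IgG2a, had 11.8, 277.1 and 32.9 FPKM in aged CR mice and 600.6, 103.9 and 79.9 FPKM in aged AL mice, against 132.4, 501.2 and 87.0 FPKM in young CR mice and 209.7, 568 and 592.4 FPKM in young AL mice. It spanned 50.8-fold across mice, the widest range of the 10 genes, and mice 5 and 13 were the lowest and the highest for both Ighg2b and Ighg2c. The differences with age were -1.06 for Ighg2b (SE 0.54, limma adjusted p = 0.352), -1.57 for Ighg2c (SE 0.78, limma adjusted p = 0.345) and 0.57 for Ighg1 (SE 0.41, limma adjusted p = 0.521). For Ighg1 the age difference was 1.15 within AL mice (SE 0.59, limma adjusted p = 0.604) and -0.01 within CR mice (SE 0.59, limma adjusted p = 0.997).

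Over the 10 genes, 8 had a positive and 2 a negative difference with age, with a median of 0.44, beside a median of -0.02 over all genes tested, of which 44.4% were positive. The isotype genes had differences of both signs, with Ighm and Igha the most positive and Ighg2b and Ighg2c the negative ones.

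The isotype composition shows the same values as shares of the 8 heavy chain constant genes in each mouse, since FPKM are scaled for length. Quantile normalization set each value by its rank, so the shares are approximate and are not fractions of transcripts. The shares are a description and were not tested. The sum was 3113 to 5640 FPKM in aged CR mice and 3265 to 6175 FPKM in aged AL mice, against 1021 to 1794 FPKM in young CR mice and 1995 to 3149 FPKM in young AL mice. Ighm took 60.1% ± 34.9 of it in aged CR mice and 55.0% ± 17.5 in aged AL mice, against 19.0% ± 6.98 in young CR mice and 26.1% ± 15.8 in young AL mice (SD, n = 3 each). The 4 IgG genes together took 12.6% ± 14.3 in aged CR mice and 29.7% ± 24.1 in aged AL mice, against 52.7% ± 17.5 in young CR mice and 64.3% ± 12.6 in young AL mice. Ighm led in 2 of 3 aged CR mice and in 3 of 3 aged AL mice, and Ighg2b led in 2 of 3 young CR mice and in 2 of 3 young AL mice. The extremes were single mice, since Ighm made up 90.8% of the sum in aged CR mouse 5 and 22.2% in aged CR mouse 6, where Igha led with 47.3%. Ighg3 was at most 2.27% except in aged AL mouse 14, where it reached 5.15%, and Ighe, the IgE gene, was at most 0.0429%.

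**Figure D2:**
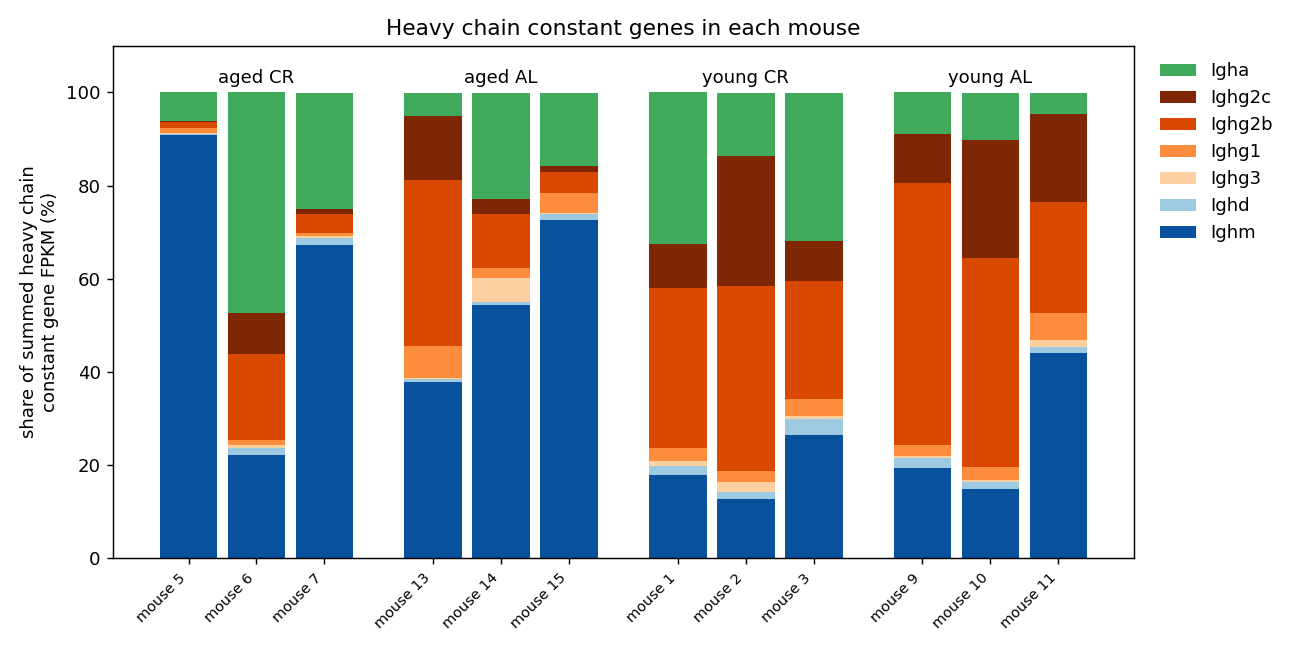
Share of each heavy chain constant gene (%) in the summed FPKM of these genes, 1 bar per mouse, with Ighe left out because it was at most 0.0429%. Ighm (dark blue) made up 22.2% to 90.8% in aged mice and 12.7% to 44.1% in young mice.

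Variable (V) segments of the heavy chain had uneven FPKM in the same mice. Like the isotype shares, these values were set by rank, and which isotype carried a segment was not tested. A single segment took 45.7% of the summed FPKM of 151 heavy chain V segments in aged CR mouse 5, 34.3% in aged CR mouse 7 and 62.3% in aged AL mouse 15, which were the 3 mice with the highest Ighm, against 9.13% to 12.2% in the other aged mice and 5.90% to 16.8% in young mice.

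Caloric restriction was set against free feeding next. No member was called over both ages (limma), where 35 of 13590 genes (0.258%) were called in either direction. Of the 10 genes, 9 had a negative difference and Igha a positive one, with a median of -0.57 beside 0.00 over all genes tested, of which 49.2% were negative. At an unadjusted p under 0.05 stood 3 of the 10, Ighg1, Mzb1 and Ighg2b, and 13.9% of all genes tested.

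IgG1 had the largest difference of the 10 genes over both ages and the smallest p. Ighg1 was at 60.7, 31.7 and 27.7 FPKM in aged CR mice, against 296.2, 69.1 and 264.4 FPKM in aged AL mice. It was at 38.4, 39.5 and 36.4 FPKM in young CR mice, against 43.0, 61.9 and 180.4 FPKM in young AL mice. Every CR mouse was below every AL mouse of its age, a pattern held by 1 of 10 members and by 1.05% of genes, and in aged mice alone by 1 of 10 members and 5.33% of genes. Over both ages the difference was -1.61 (SE 0.41, 95% interval -2.52 to -0.70, limma adjusted p = 0.117). It was -2.19 in aged mice (SE 0.59, limma adjusted p = 0.406) and -1.02 in young mice (SE 0.59, limma adjusted p = 0.550). Without aged AL mouse 14, which had the lowest Ighg1 of the AL mice of its age, the difference over both ages passed the threshold at -1.94 (limma adjusted p = 0.0289). Without each of the other 11 mice in turn it did not pass, with limma adjusted p between 0.0768 (without aged CR mouse 5) and 0.262 (without aged CR mouse 7). The difference in young mice was -0.43 without young AL mouse 11. Without mouse 14 and aged CR mouse 5, which stood farthest from their groups, Ighg1 passed over both ages at -2.11 (limma adjusted p = 0.0106) and in aged mice at -3.20 (limma adjusted p = 0.0354). Leaving out mouse 14 removes the lowest aged AL value, which widens the gap. In both fits without mouse 14 the calls with diet over all genes also rose, from 35 in the main fit to the counts given in the closing section.

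Mzb1, the secretion chaperone gene (chr18:35647267-35649367, minus strand), had the next smallest p with diet. It was at 20.6, 15.8 and 14.5 FPKM in aged CR mice, against 31.9, 16.7 and 59.4 FPKM in aged AL mice, and at 14.5, 15.8 and 10.1 FPKM in young CR mice, against 19.9, 24.8 and 26.1 FPKM in young AL mice. Young mice separated by diet, and in aged mice CR mouse 5 was above AL mouse 14. Its difference was -0.83 over both ages (SE 0.25, limma adjusted p = 0.172). Without aged AL mouse 14, the lowest of the aged AL mice for Mzb1, calls over all genes rose, and the Mzb1 difference was -1.05 and passed (limma adjusted p = 0.0261). It also passed without mice 14 and 5, at -1.12 (limma adjusted p = 0.0126). Without each of the other 11 mice in turn it did not pass, with limma adjusted p between 0.144 (without aged CR mouse 5) and 0.32 (without aged CR mouse 7). The differences of Ighg2b and Ighg2c over both ages were -1.36 (SE 0.54, limma adjusted p = 0.290) and -1.50 (SE 0.78, limma adjusted p = 0.425).

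**Figure D3:**
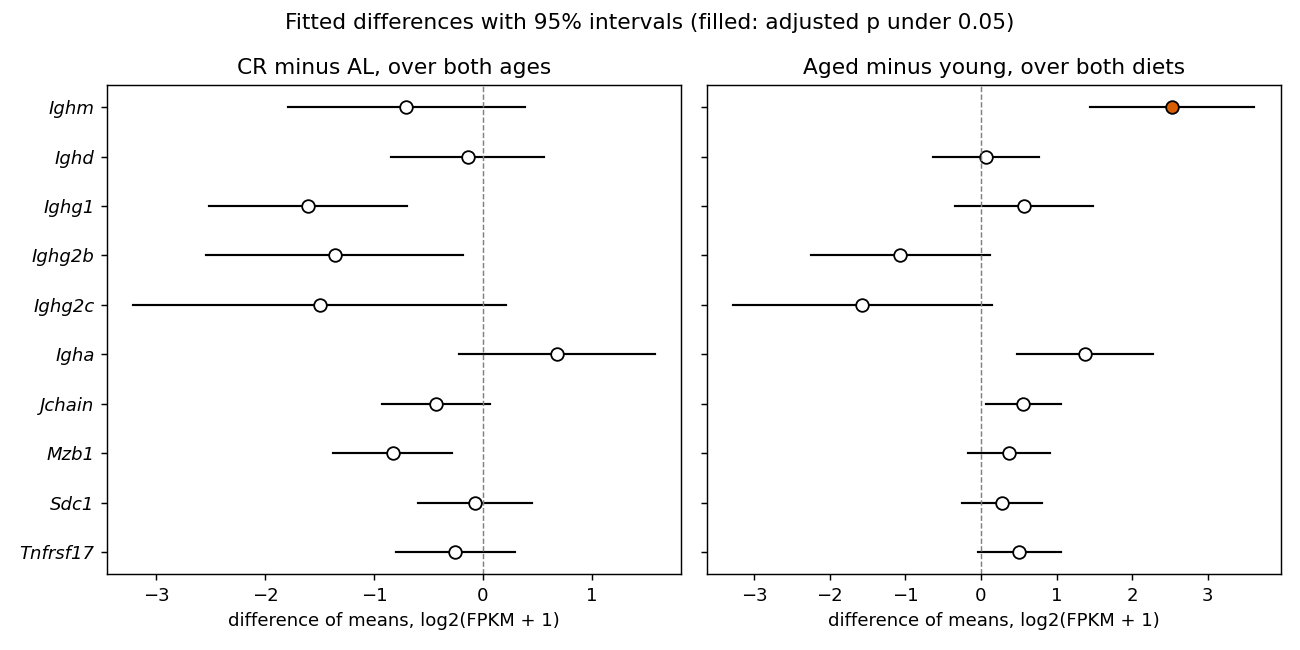
Fitted differences on the log2(FPKM + 1) scale with 95% intervals for CR minus AL over both ages (left) and aged minus young over both diets (right), with a filled point where the adjusted p was under 0.05. Ighm with age, at 2.53, is the single filled point, and with diet Ighg1 lies lowest at -1.61.

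In young mice, the diets separated without overlap for 7 of 10 members. Lower in every CR mouse were Ighm, Ighd, Ighg1, Ighg2b, Jchain and Mzb1, 6 of 10 members against 9.38% of genes, and higher in every CR mouse was Igha, 1 of 10 members against 10.1% of genes. No member passed the test (limma, lowest adjusted p = 0.427, for Jchain), where 0.0662% of genes were called in either direction. At an unadjusted p under 0.05 stood 2 of 10 members, Jchain at -0.75 (SE 0.32) and Mzb1 at -0.78 (SE 0.35), beside 11% of all genes tested, and in the unequal-variance test on FPKM no member was called. Igha differed by 0.88 (SE 0.58, limma adjusted p = 0.604), at 343.4 ± 110.2 FPKM in young CR mice and 183.2 ± 40.5 FPKM in young AL mice (SD, n = 3 each).

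In aged mice the spread between mice was larger and separated fewer genes. No member was called (limma, lowest adjusted p = 0.406, for Ighg1), where 0 of 13590 genes (0%) were called at all and 611 higher and 438 lower genes stood at an unadjusted p under 0.05. Of the members, 2 stood there, Ighg1 and Mzb1, with Mzb1 at -0.88 (SE 0.35), and the unequal-variance test on FPKM called none. For Ighm the group means were close, at 2680 ± 2250 FPKM in aged CR mice and 2635 ± 1608 FPKM in aged AL mice (SD, n = 3 each), and the difference of -0.24 had an interval of -1.78 to 1.3, which covers a sizeable change in either direction. The interaction of diet and age was called for none of the 10 members (limma adjusted p = 0.999 for each, 0 at an unadjusted p under 0.05) and for 0 of 13590 genes (0%), so a difference in diet response between the ages was not shown for any of them.

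The genes of the plasma cell surface were not called in any comparison. Sdc1 (chr12:8771323-8793715, plus strand) was at 11, 8.67 and 9.01 FPKM in aged CR mice and at 8.93, 5.59 and 22.2 FPKM in aged AL mice, against 9.34, 7.76 and 7.14 FPKM in young CR mice and 7.96, 7.71 and 8.72 FPKM in young AL mice. Apart from mouse 15, no mouse exceeded 11 FPKM, and the groups overlapped in each comparison. Its differences were -0.07 with diet (SE 0.24, limma adjusted p = 0.921) and 0.28 with age (SE 0.24, limma adjusted p = 0.602), with intervals of -0.60 to 0.45 and -0.25 to 0.80. Syndecan-1 is also made by epithelia, and the listed epithelial markers summed to 2.81 to 6.07 FPKM in aged CR mice and 1.52 to 13.9 FPKM in aged AL mice, against 2.85 to 4.22 FPKM in young CR mice and 2.66 to 3.77 FPKM in young AL mice. Krt5 was at 0 in all mice, and mouse 15 had the highest sum as well as the highest Sdc1. The part of epithelial cells in the Sdc1 values was not tested.

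Tnfrsf17 (chr16:11313812-11320074, plus strand) was the lowest member. It was at 2.79, 1.46 and 1.02 FPKM in aged CR mice and at 1.92, 0.715 and 3.81 FPKM in aged AL mice, against 1.06, 0.499 and 0.595 FPKM in young CR mice and 0.661, 1.32 and 1.88 FPKM in young AL mice. Its groups overlapped in each comparison, and the differences were -0.25 with diet (SE 0.25, limma adjusted p = 0.691) and 0.51 with age (SE 0.25, limma adjusted p = 0.340). Aged AL mouse 15 held the highest value of 4 of the 10 genes, Ighd, Mzb1, Sdc1 and Tnfrsf17, and aged AL mouse 13 that of the 3 IgG genes Ighg1, Ighg2b and Ighg2c.

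Other genes of the antibody pathway were read from lists of known genes. The list of other antibody constant genes holds the light chain genes and Ighg3. In it 4 of 5 tested genes had a positive age difference (median 0.33), beside 44.4% of all genes, and none was called. Igkc differed by 1.57 with age (SE 0.39, limma adjusted p = 0.0975), and the lambda gene Iglc1 by 1.17 (SE 0.49, limma adjusted p = 0.271). Of 11 tested regulators and surface genes of plasma cells, none was called. With diet 10 of 11 had a negative difference (median -0.36), beside 49.2% of all genes tested. They were led by Cd93, a surface protein needed for plasma cell maintenance in mice, at -0.36 (SE 0.07, limma adjusted p = 0.0565). Slamf7 was at -0.67 (SE 0.20, limma adjusted p = 0.178), and Irf4, a transcription factor that plasma cells require, at -0.63 (SE 0.21, limma adjusted p = 0.221). Which cells of the tibia these values came from was not tested. With age 9 of 11 were positive (median 0.27), beside 44.4% of all genes tested. Among them were Cd38 at 0.28 (SE 0.08, limma adjusted p = 0.138) and Xbp1, the factor that drives the secretory program, at 0.43 (SE 0.12, limma adjusted p = 0.142).

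The 16 genes of antibody folding and secretion serve every secreting cell of the bone. With age 15 of 16 had a positive difference (median 0.35, beside -0.02 over all genes), 9 of 16 at an unadjusted p under 0.05, beside 16.6% of all genes, and none called. Txndc5, a disulfide isomerase gene, differed by 0.61 (SE 0.17, limma adjusted p = 0.123). Derl3, of endoplasmic reticulum degradation, differed by 1.45 (SE 0.45, limma adjusted p = 0.161), and the chaperone gene Hspa5 by 0.42 (SE 0.12, limma adjusted p = 0.145). Aged AL mouse 15 had the highest sum of the list, 1641 FPKM, against 856.1 to 1278 FPKM in the other mice. With diet the list was balanced, with 7 positive and 9 negative.

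The niche list, of survival factors, adhesion molecules and their receptors, was balanced in age, 5 of 10 positive, and had no call in any comparison. In the list of class switching and germinal centre genes, 1 of 5 tested genes was called, with age within CR mice. In that comparison 0.361% of all genes were called in either direction. Gcsam, a germinal centre signaling gene, was higher in aged than in young CR mice by 0.82 (SE 0.15, limma adjusted p = 0.0451). Its age difference was not called over both diets, at 0.49 (SE 0.10, limma adjusted p = 0.0636), or within AL mice, at 0.15 (SE 0.15, limma adjusted p = 0.764). Among 7 tested antibody receptors and carriers, 1 was called, with age over both diets, where 0.449% of all genes were called higher. It was Fcgr2b, the inhibitory IgG receptor, higher by 0.39 (SE 0.07, limma adjusted p = 0.0414), and Fcamr was at 0 in all mice. The calls of Gcsam and Fcgr2b lay close to the threshold. Counts of calls moved when single mice were left out, as given in the closing section.

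Markers of other cells are given beside these genes. Of 8 tested B cell precursor markers, 8 had negative age differences (median -1.01), 7 at an unadjusted p under 0.05, beside 16.6% of all genes, and none called, and their sum was 18.4 to 46.8 FPKM in aged CR mice and 14.02 to 90.82 FPKM in aged AL mice, against 51.1 to 91.9 FPKM in young CR mice and 114.7 to 139.5 FPKM in young AL mice. Mature B cell markers, 12 entries for 11 genes, had a negative diet difference in 11 of 12 entries in young mice (median -0.45, none called). Of all genes tested, 47.7% were negative there. The sums of these markers were 199.4 to 227.8 FPKM in young CR mice, against 290.4 to 345.6 FPKM in young AL mice. In aged mice the sums overlapped, at 175.2 to 242.7 FPKM in CR mice and 134.9 to 368.4 FPKM in AL mice. The 4 tested adipocyte markers were positive with diet in each case (median 1.05, 4 at an unadjusted p under 0.05, beside 13.9% of all genes, none called), and their list summed to 541.5 to 914.3 FPKM in aged CR mice, against 261.8 to 526.4 FPKM in aged AL mice, and to 534.8 to 737.4 FPKM in young CR mice, against 282.8 to 320.8 FPKM in young AL mice. The 5 T cell markers were positive with age in each case (median 0.46, none called). Of them Trac, Cd8a, Cd3g and Cd3e stood at an unadjusted p under 0.05 and Cd4 did not. Positive too in each case were the 5 muscle markers (median 0.79, none called and none at an unadjusted p under 0.05). The 6 neutrophil markers (median -0.30, 2 at an unadjusted p under 0.05, none called) and the 6 osteoblast and bone markers (median -0.27, 1 at an unadjusted p under 0.05, none called) were negative with age in each case. The part of these cells in the values of the antibody genes was not tested.

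**Figure D4:**
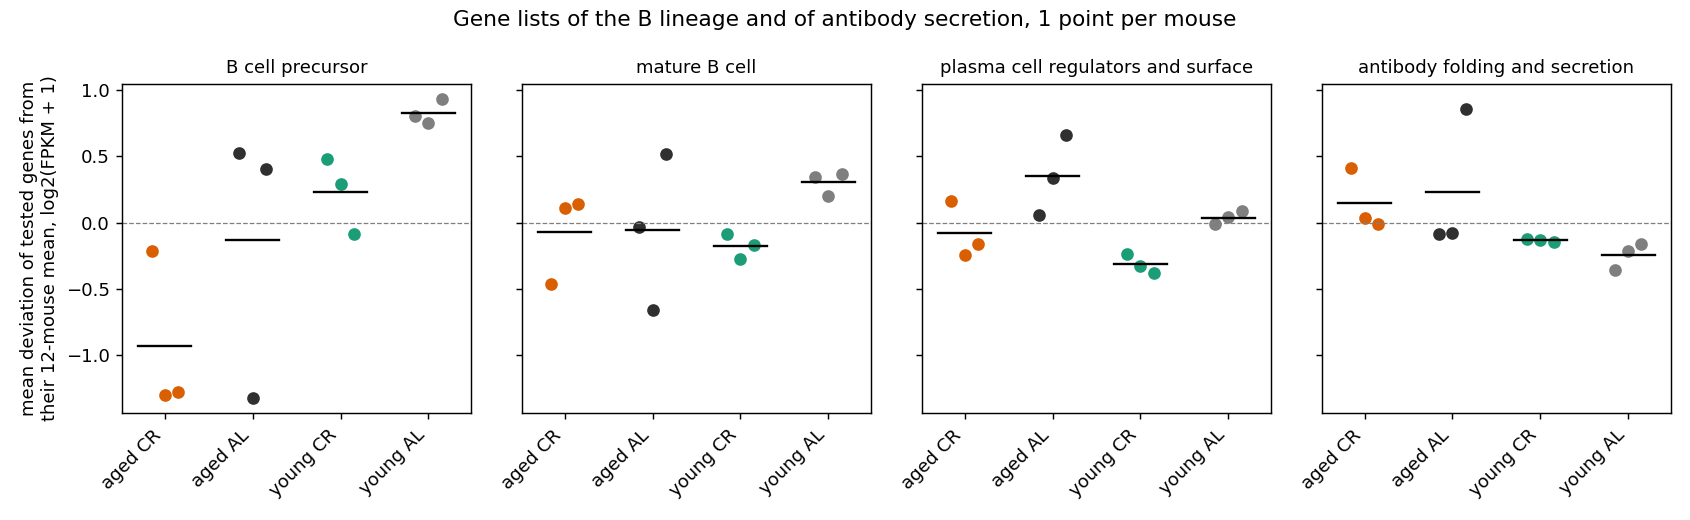
Mean deviation of the tested genes of 4 lists from their mean over 12 mice, on the log2(FPKM + 1) scale, 1 point per mouse (n = 3 per group) with bars at the group mean. Precursor markers were lowest in aged AL mouse 14 at -1.33, and folding and secretion genes were highest in aged AL mouse 15 at 0.85.

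The genes most like Ighm and Jchain were named by Pearson's r of log2(FPKM + 1) across the 12 mice, a description over mice that share groups. For Ighm they were Lrrc32 (r = 0.942), Casp4 (0.920), A530040E14Rik (0.914), Ly6a (0.912) and Atp6v0a2 (0.909), and 2 of its 20 most alike genes were immunoglobulin genes. For Jchain they were Cxcr6 (r = 0.822), Gm8369 (0.819), Vps41 (0.818), Ccdc174 (0.796) and Cxcl16 (0.783), with 3 immunoglobulin genes among the 20. In a look added after the values were seen, Ighd was most like Fcer2a (r = 0.948) and Ms4a1 (r = 0.920), both genes of mature B cells, and Mzb1 most like Irf4 (r = 0.921). Sdc1 was most like Epcam (r = 0.939), of the epithelial list, followed by Edem2 (r = 0.922) and Fkbp11 (r = 0.912), which act in the endoplasmic reticulum. Krt18, the other tested gene of the epithelial list, differed by 0.01 with age (SE 0.14), where Epcam differed by 0.61 (SE 0.40). The highest Sdc1, 22.2 FPKM in mouse 15, may weigh on these r, and the cells that made Sdc1 were not tested.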

How the data were processed

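RNA of whole tibiae from 12 mice, 3 per group, was sequenced by the authors with a stranded mRNA kit. Reads were checked with FastQC 0.11.8 and MultiQC 1.6, trimmed with Trim Galore 0.5.0, aligned to mm10 with STAR 2.6.1 and quantified with StringTie 2.1.3b. The authors deposited linear FPKM, quantile normalized in R 4.1.1. Values of the same rank differed by at most 0.00936 FPKM between mice, so counts and depth are unknown and precision is the spread between mice. The sources used here do not say how the 4 technical repeats were merged.

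Groups came from the sample labels. limma 3.58.1 in R 4.3.3 was fitted to log2(FPKM + 1) with a pseudocount of 1, a minimum mean of 1 FPKM, 4 group means and a trended prior variance, for diet within each age and over both, age within each diet and over both, and their interaction, after the fit was tested on simulated data. The unequal-variance test of the study was an alternative. With 3 against 3 mice an exact permutation test cannot go below p = 0.1. The 10 genes and the lists were chosen with earlier results of these data known. The text names the members, up to 4 genes of each list by smallest p, and the 5 most alike to Ighm and Jchain.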

Additional observations from a re-analysis of the deposited data

How the results depend on the processing

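No paired analysis was possible because no label names a litter or a pair, and the technical repeats have no columns of their own. The paper describes the AL mice as littermates of matched age. Against 9 calls in young mice (CR against AL), 0 in aged mice, 35 with diet, 103 with age, 9 and 49 with age within AL and CR mice and 0 for the interaction, the settings gave the following in that order where the count moved by over 1.5 times. Without the filter on low values there were 5, 1, 9 and 44, and 22 within CR mice. With 1 quality weight per mouse there were 304, 193, 923, 1798, 28, 1711 and 1. With mice 14 (aged AL) and 5 (aged CR) left out there were 159, 48, 441 and 213, 91 within CR mice and 1 for the interaction. Fitting the 2 groups alone gave 74 in young mice and 4 and 9 for age within AL and CR mice, and the unequal-variance test gave 0 in each of these 3. Leaving out 1 mouse at a time gave 0 to 44, 0 to 7, 8 to 222, 21 to 221, 5 to 15, 5 to 173 and 0 to 1. Without aged CR mouse 5 alone there were 222 calls with diet, and without aged AL mouse 14 alone 146.

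Ighm with age ranged over 2.19 to 2.91 when 1 mouse was left out, and its limma adjusted p was 0.11 without the filter, 0.0501 without a trended prior and 0.0511 without mice 14 and 5. Over all settings it was between 0.00763 and 0.136. With quality weights Ighg1 passed with diet at -2.05 (limma adjusted p = 0.00476), Mzb1 at -0.87 (0.00961) and Ighg2b at -1.73 (0.0481), in aged mice Ighg1 passed at -3.02 (0.0133) and Mzb1 at -1.05 (0.0412), and Ighm passed with age in CR mice at 2.86 (0.0115). Without aged CR mouse 6 that Ighm difference was 3.75 (0.02). Differences that were not called turned sign in places. With quality weights Sdc1 in young mice was 0.075 and Ighd with diet 0.013. When 1 mouse was left out, the CR minus AL difference in aged mice spanned -0.92 to 0.52 for Ighm, -0.32 to 0.73 for Ighd, -0.18 to 1.04 for Igha, -0.42 to 0.088 for Jchain, -0.53 to 0.38 for Sdc1 and -0.49 to 0.25 for Tnfrsf17. It spanned -0.11 to 0.061 for Sdc1 in young mice, and over both ages -0.37 to 0.15 for Ighd and -0.27 to 0.18 for Sdc1, and Ighd with age spanned -0.23 to 0.30. In all, 751 of 797 refitted values of members kept direction and side of the threshold, 12 became weaker, 12 stronger and 22 turned sign. Most of these values were of differences that were not called and stayed so. All 12 that became weaker were of Ighm with age, the only call, which was lost in 12 of 18 settings and kept in 6. The cause was not tested.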
